A study of Mus musculus with 2 samples.

Results

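The genes that load glutamate into synaptic vesicles, clear it from the extracellular space and return it to neurons as glutamine were followed across the cells of the mouse ventral parafacial region, a part of the medulla that holds the chemosensory neurons of the retrotrapezoid nucleus. They were 9 of the 28692 genes in the count tables: *Slc17a6*, *Slc17a7* and *Slc17a8* (the vesicular glutamate transporters VGLUT2, VGLUT1 and VGLUT3), *Slc1a1*, *Slc1a2* and *Slc1a3* (the plasma membrane glutamate transporters EAAT3, GLT-1 and GLAST), *Glul* (glutamine synthetase), and *Slc38a1* and *Slc38a3* (the glutamine transporters SNAT1 and SNAT3). They were taken by name, for the roles they are known for. All 9 had at least 1 UMI (unique molecular identifier, 1 counted transcript) in each library.

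Single cells came from C57BL6/J wild-type mice aged 10 days, which carried no transgene, and 1 droplet library (10x Genomics, v2 chemistry) was made for each of 2 conditions. The untreated library, batch 1, and the 4OH-tamoxifen library, batch 2, from mice given 0.2 mg a day for 3 days, each pooled 8 mice, 4 male and 4 female. With 1 library per condition the condition, the batch and the library cannot be told apart, no test between conditions was possible, and all values are given for both libraries side by side, the untreated library first. Intervals are exact, at 95%, and cover counting error only, since cells of 1 pool are not replicates.

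Glutamate released at a synapse is taken up mainly by astrocytes through GLT-1 and GLAST, is amidated to glutamine by glutamine synthetase, leaves the astrocyte through SNAT3 and enters neurons through SNAT1 and related carriers, where it becomes glutamate again. A neuron can release glutamate by exocytosis only if a VGLUT loads it into vesicles, and brainstem glutamatergic neurons are known mostly for VGLUT2. EAAT3 is known as the neuronal uptake transporter.

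Promoter sequence is shown for the 3 members that the results below turn on by class: *Slc17a6*, highest in neurons, *Slc1a3*, highest in astrocytes, and *Glul*, which astrocytes shared with microglia and endothelial cells. The promoter tables of RefSeq (GRCm38.p6) had an entry for 7 of the 9 members, and *Slc38a1* and *Slc38a3* were without one. Each sequence is the 250 bases before the RefSeq start, 5′ to 3′ on the gene's strand, and capitals mark 4 common promoter motifs searched on both strands: the TATA box (TATAAA), the CAAT box (CCAAT), the GC box (GGGCGG) and an E-box (CACGTG).
*Slc17a6*, chr7:51621580-51621829, plus strand: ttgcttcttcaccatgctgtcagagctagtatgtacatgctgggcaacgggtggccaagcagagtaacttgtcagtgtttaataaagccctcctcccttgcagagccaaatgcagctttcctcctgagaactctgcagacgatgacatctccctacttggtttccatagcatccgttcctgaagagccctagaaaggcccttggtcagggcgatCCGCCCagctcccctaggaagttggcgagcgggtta
*Slc1a3*, chr15:8710808-8711057, minus strand: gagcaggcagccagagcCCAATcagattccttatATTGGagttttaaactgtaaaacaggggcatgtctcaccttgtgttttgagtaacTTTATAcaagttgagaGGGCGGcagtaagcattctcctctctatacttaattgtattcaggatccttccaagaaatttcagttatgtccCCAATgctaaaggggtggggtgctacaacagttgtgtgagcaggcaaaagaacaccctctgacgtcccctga
*Glul*, chr1:153899679-153899928, plus strand: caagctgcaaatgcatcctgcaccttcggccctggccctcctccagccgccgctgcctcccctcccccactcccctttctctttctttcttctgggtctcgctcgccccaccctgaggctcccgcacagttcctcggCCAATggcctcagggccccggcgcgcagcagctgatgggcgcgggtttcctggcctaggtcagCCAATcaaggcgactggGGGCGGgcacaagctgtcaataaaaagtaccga

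The *Slc17a6* window held 1 GC box, read on the opposite strand. The *Slc1a3* window held 3 CAAT boxes, 1 of them on the opposite strand, 1 GC box and 1 match to the TATA box. That match was on the opposite strand, 161 to 156 bases before the start. The *Glul* window held 2 CAAT boxes and 1 GC box. Among 32851 promoters of the same length, 12.4% held a TATA box, 33.8% a CAAT box, 32.7% a GC box and 6.02% the E-box. The GC content of the windows was 53.2% for *Slc17a6*, 44.8% for *Slc1a3* and 64.8% for *Glul*, and the median of all promoters was 52.4%. These matches describe the letters of the windows only.

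In GENCODE M21 (GRCm38) all 9 members were protein-coding genes, on 7 chromosomes. *Slc17a6* spans chr7:51622006-51671119 and *Slc17a7* chr7:45163949-45176142, both on the plus strand, and *Slc17a8* spans chr10:89574020-89621253 on the minus strand. *Slc1a1* lies at chr19:28835049-28913960 and *Slc1a2* at chr2:102658659-102790784, both on the plus strand, and *Slc1a3* at chr15:8634124-8710764 on the minus strand. *Glul* lies at chr1:153899944-153909723 on the plus strand, and *Slc38a1* (chr15:96571418-96642913) and *Slc38a3* (chr9:107650634-107669530) lie on the minus strand. UMIs were counted per gene from the 3′ end, so transcripts of 1 gene cannot be separated.

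After filtering, 3339 and 8558 cells were kept, with a median of 3628 and 2411 UMIs. Of these, 1192 cells (35.7%) and 2835 cells (33.1%) could be placed in a class by 1 marker: at least 2 UMIs of *Aqp4* (astrocytes, 520 and 1140 cells), *Pdgfra* (oligodendrocyte precursors, 115 and 299), *Mog* (oligodendrocytes, 196 and 662), C1qa (microglia, 176 and 289), *Cldn5* (endothelial cells, 124 and 175) or *Snap25* (neurons, 61 and 270), and none of the others. Neurons were split by *Slc32a1*, the vesicular GABA transporter, and *Chat*, the enzyme that makes acetylcholine, into inhibitory neurons (*Slc32a1* only, 27 and 110 cells), cholinergic neurons (*Chat* only, 10 and 31) and *Slc32a1*-/*Chat*- neurons (22 and 123), with 2 and 6 cells positive for both. No member took part in this choice. Each class that had a list of further markers led in it, but transcripts of other cells were found in every class: the summed level of 6 oligodendrocyte genes was 91747 and 85451 per 1000000 UMIs (CPM) in oligodendrocytes and between 3868 and 19439 CPM elsewhere. The 2 libraries shared 40 barcodes, and 6 and 544 barcodes were removed as doublets. The numbers expected from loading were 114 and 839, so doublet removal was unequal between the libraries.

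Seen over the classes, the members fell into a neuronal and an astrocytic set with *Glul* and *Slc1a1* spread most widely. *Slc38a1* was counted as neuronal but was also high in a part of the astrocytes. Levels are sums of UMIs over the cells of a class in CPM, and a ratio compares the class a gene is known for with all other gated cells. Of the 7 members with enough UMIs to be compared (*Slc17a7* and *Slc17a8* had too few), 5 were at least 4-fold higher in that class in both libraries: *Slc17a6* in *Slc32a1*-/*Chat*- neurons, *Slc38a1* in all neurons, and *Slc1a2*, *Slc1a3* and *Slc38a3* in astrocytes. Among 9685 genes compared the same way, 3.46% passed 4-fold in *Slc32a1*-/*Chat*- neurons, 6.95% in neurons and 3.73% in astrocytes. *Slc17a6* had enough UMIs only through the neurons in which it was high, so its passing was in part fixed by that filter. *Glul* and *Slc1a1* did not pass 4-fold. Under other processing and thresholds the number that passed went from 3 to 6, and *Slc38a1* was among those lost.

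**Figure D1:**
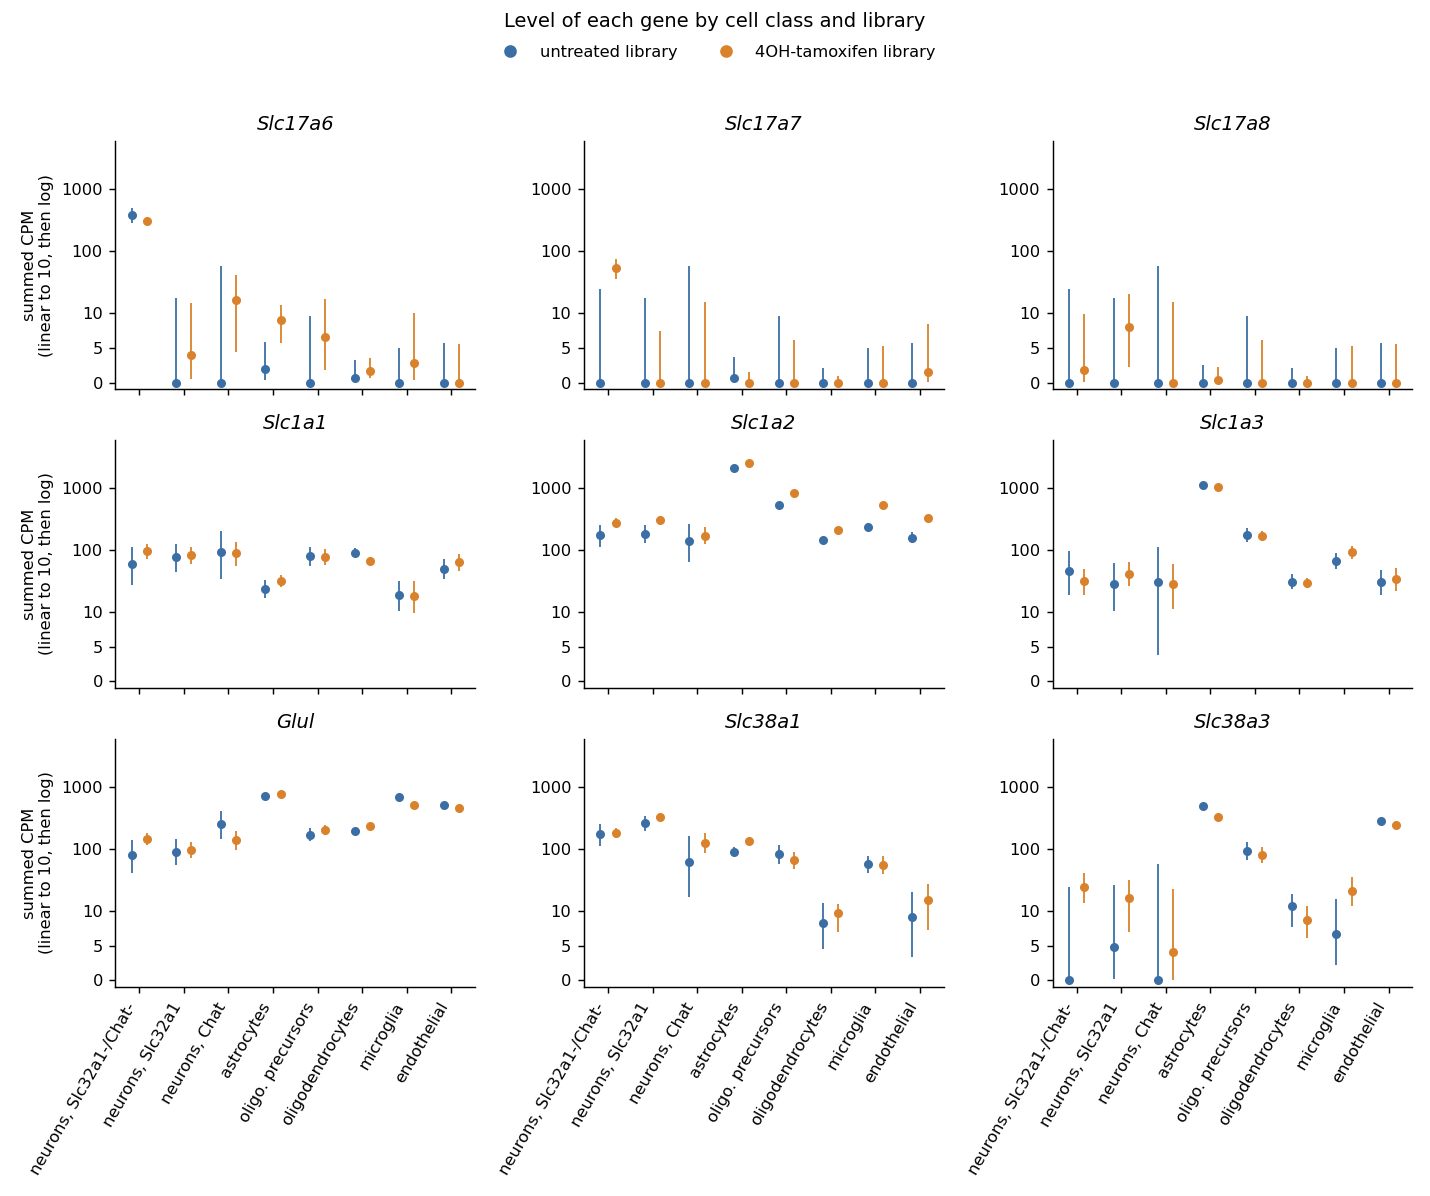
Level of each of the 9 members in 8 cell classes, in CPM (the axis is linear to 10 and logarithmic above), with 1 point per library and bars for exact 95% Poisson intervals of counting error. *Slc17a6* stands out in *Slc32a1*-/*Chat*- neurons (381 and 304 CPM), *Slc1a2*, *Slc1a3* and *Slc38a3* are highest in astrocytes, and *Glul* is high in astrocytes (711 and 779 CPM), microglia (683 and 512 CPM) and endothelial cells (512 and 465 CPM).

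*Slc17a6*, which encodes VGLUT2, was at 381 CPM (289 to 494) and 304 CPM (261 to 354) in *Slc32a1*-/*Chat*- neurons. In inhibitory neurons it had 0 and 2 UMIs and in cholinergic neurons 0 and 4 UMIs, and in the 5 non-neuronal classes it did not exceed 9.03 CPM. Its level in *Slc32a1*-/*Chat*- neurons over that in all other gated cells was 499 (185 to 1895) and 68.9 (48.8 to 99.4), with ranges of 162 to 1025 and 32.1 to 95.9 under other processing. The *Slc32a1*-/*Chat*- neurons were the only class set apart from the next in both libraries, and the remaining order of the classes rested on a few UMIs. Part of these cells carried the transcript: 9 of 22 (40.9%, 20.7 to 63.6) and 42 of 123 (34.1%, 25.8 to 43.2), against 0 of 176 and 2 of 289 microglia, a class that should lack it, at a median depth of 4018.5 and 2238 UMIs against 4236.5 and 3431 in the neurons. After thinning each cell to 2000 UMIs the shares were 23.8% and 29.3%, the untreated share was 20% when at most 10% mitochondrial UMIs were allowed, and the 4OH-tamoxifen share was 19.1% when 1 UMI of *Snap25* was enough. In these neurons 6 oligodendrocyte genes were at 17033 and 7196 CPM and 4 cholinergic genes at 595 and 2170 CPM, and their part in the shares was not tested.

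Among the gated neurons, the transcripts for vesicular loading of glutamate and of GABA were found together in 1. With clusters in place of the gate they were together in 1 of 50 and 4 of 169 neurons with *Slc17a6*. Of the 53 neurons with *Slc17a6* (9 and 44), 1 also had *Slc32a1* (1.89%, 0.0478 to 10.1), against 51.8% of the neurons without *Slc17a6*. *Chat* was found in 1 of the 53, *Gad1*, which makes GABA, and *Slc6a5*, the glycine transporter GlyT2, in none (a count of 0 of 53 allows up to 5.66% of cells with a UMI), and *Gad2* in 5, where 41.7%, 37.8% and 49.6% of the neurons without *Slc17a6* had a UMI of *Gad1*, *Slc6a5* and *Gad2*. All *Snap25* neurons entered these counts, whatever their class.

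Among neurons with *Th*, the first enzyme of catecholamine synthesis, 2 of 4 and 4 of 4 had *Slc17a6*, and 2 of the untreated 4 had *Slc32a1* (9 UMIs). *Tph2*, the enzyme of serotonin synthesis, marked 1 neuron in each library, with 2 and 1 UMIs. These cells had 3 and 4 UMIs of *Slc32a1* and none of *Slc17a6* or *Slc17a8*, and the untreated one was also among the *Th* neurons. In the *Slc32a1*-/*Chat*- neurons without *Slc17a6* (13 and 81 cells), 6 of the 13 and 56 of the 81 had *Slc18a3*, *Slc5a7*, *Isl1* or *Prph*, genes of cholinergic or motor neurons, and 0 and 11 had *Gad1*, *Gad2* or *Slc6a5*.

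*Slc17a7*, which encodes VGLUT1, was sparse. In the 4OH-tamoxifen library 30 UMIs lay in 8 *Slc32a1*-/*Chat*- neurons, which is 53.1 CPM (35.8 to 75.8) and 6.50% of the class. The highest cells held 11 and 7 of these UMIs, so the level rested on few cells. Of the 8, 5 also carried *Slc17a6*. In the untreated library none of the 22 cells had a UMI of it, a count that allows up to 13.6% of cells with a UMI and does not limit the share that express the gene. Among the gated cells outside neurons the gene had 1 UMI in an untreated astrocyte and 1 in a 4OH-tamoxifen endothelial cell. *Slc17a8*, which encodes VGLUT3, had 6 UMIs among the gated 4OH-tamoxifen cells (4 in 2 inhibitory neurons, 1 in an *Slc32a1*-/*Chat*- neuron and 1 in an astrocyte) and 0 in the untreated cells, so no order of classes can be given for it.

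The uptake transporters *Slc1a2* and *Slc1a3* shared 1 order at the top: astrocytes, then oligodendrocyte precursors, then microglia. The steps from astrocytes to precursors and from precursors to microglia exceeded counting error in both libraries, and the step from microglia to the class after them did so in the 4OH-tamoxifen library only. *Slc1a2* (GLT-1) was at 2126 CPM (2052 to 2201) and 2548 CPM (2485 to 2612) in astrocytes and was found in 96.9% and 96.6% of them. It was also found in 58.5% and 65.7% of microglia, so detection alone separates the classes little. Oligodendrocyte precursors had 528 and 823 CPM, and microglia 234 and 531 CPM. In the remaining classes it lay between 141 and 183 CPM in the untreated and between 172 and 324 CPM in the 4OH-tamoxifen library, with intervals that overlapped between most neighbours. Astrocytes exceeded all other gated cells by 10.3-fold (9.56 to 11.2) and 8.14-fold (7.76 to 8.54).

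*Slc1a3* (GLAST) was at 1114 CPM (1061 to 1169) and 1022 CPM (983 to 1063) in astrocytes, in 88.3% and 82.2% of cells, against 26.1% and 20.4% of microglia. The next class, oligodendrocyte precursors, had 177 and 170 CPM, microglia had 67.8 and 93.0 CPM, and no other class exceeded 46.8 CPM. Among the members compared for astrocytes it had the largest ratio to all other gated cells, 21.1 (18.2 to 24.5) and 21.2 (18.9 to 23.7), nearly equal in both libraries, with ranges of 15.1 to 25.3 and 14.1 to 25.6 under other processing. The *Pdgfra* cells also carried 4 fibroblast genes, at 973 and 208 CPM, whose part in the precursor level was not tested.

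To set the astrocytic members beside other genes of astrocytes, their UMIs were divided by those of 6 other astrocyte genes (*Gja1*, *Slc4a4*, *Mlc1*, *Atp1b2*, *Cldn10* and *Ntsr2*) in each class and expressed relative to astrocytes. For *Slc1a2* this quotient was above 1 in every other class, between 1.59 and 3.35 in the untreated and between 1.27 and 2.71 in the 4OH-tamoxifen library, for example 3.35 and 2.65 in precursors and 2.94 and 2.71 in microglia. In untreated cholinergic neurons it rested on 9 UMIs of *Slc1a2* and 19 of the 6 genes. There the quotient before scaling to astrocytes, 0.474 (0.189 to 1.10), had an interval that held the astrocyte value of 0.233. For *Slc1a3* the quotient relative to astrocytes was highest in precursors (2.14 and 1.36) and microglia (1.62 and 1.18). It lay between 0.523 and 1.16 and between 0.439 and 0.826 elsewhere. The quotients depended on the genes divided by. With each of the 6 left out in turn, that of *Slc1a2* in precursors went from 2.98 to 4.47 and from 2.36 to 3.01, and that in untreated inhibitory neurons from 1.51 to 3.22.

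**Figure D2:**
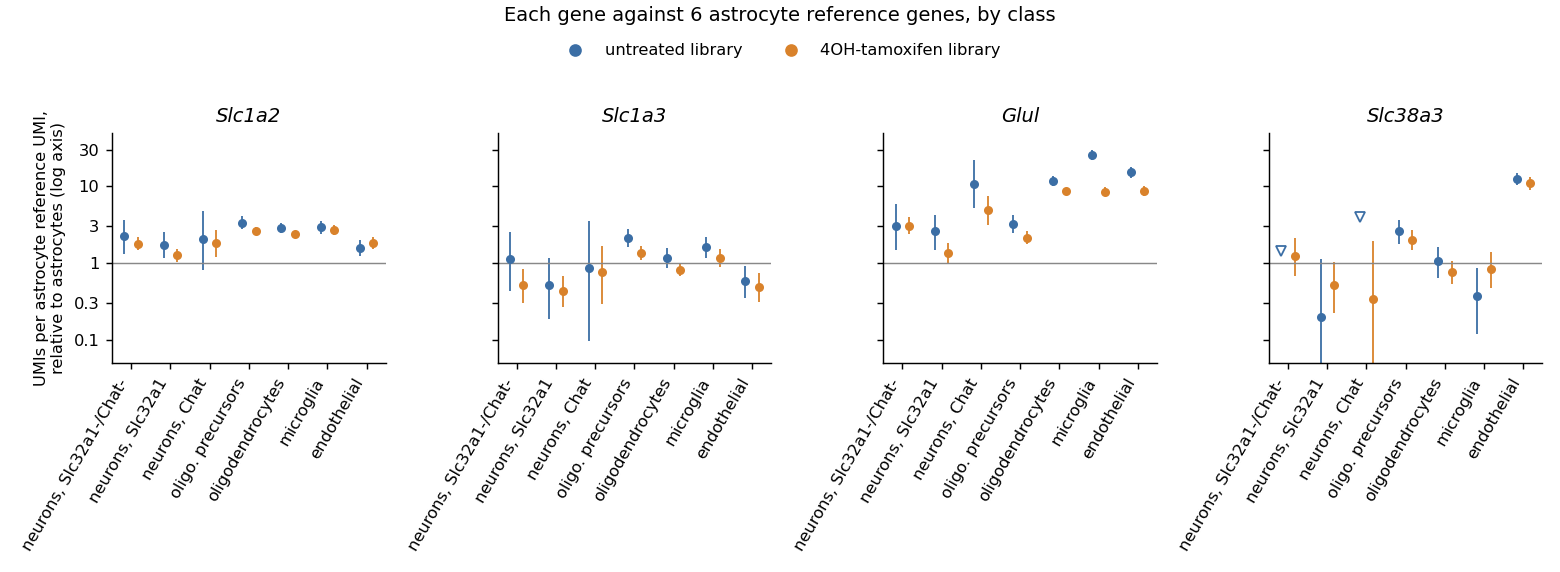
UMIs of *Slc1a2*, *Slc1a3*, *Glul* and *Slc38a3* per UMI of 6 other astrocyte genes, relative to the same quotient in astrocytes (logarithmic axis), by class and library, with open triangles for upper limits where a gene had 0 UMIs. *Glul* lies far above 1 in microglia (25.6 and 8.54) and *Slc38a3* in endothelial cells (12.4 and 10.9), while *Slc1a3* stays between 0.439 and 2.14.

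*Slc1a1*, which encodes the transporter EAAT3, was not particular to neurons. Its level was 77.0 CPM (53.0 to 108) and 89.2 CPM (74.0 to 107) in neurons, only 1.42 (0.955 to 2.04) and 1.67 (1.36 to 2.05) times that in all other gated cells, with ranges of 0.749 to 1.98 and 1.35 to 3.12 under other processing. Cholinergic neurons had 93.8 and 90.1 CPM, inhibitory neurons 77.1 and 82.3, *Slc32a1*-/*Chat*- neurons 60.2 and 95.6, oligodendrocyte precursors 80.7 and 77.6, oligodendrocytes 91.9 and 66.6, and endothelial cells 50.7 and 63.6 CPM. Between neighbours in this order, only the step from endothelial cells to astrocytes (24.2 and 32.0 CPM) exceeded counting error in both libraries, and microglia were lowest at 19.0 and 18.6 CPM.

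Within the oligodendrocyte lineage *Slc1a1* was uneven. These groups were formed after its values were seen. They used *Enpp6*, *Gpr17*, *Bmp4* and *Tmem2*, genes of different stages between precursors and mature oligodendrocytes. Among *Mog* cells, those with *Enpp6* and at least 1 more of the 4 had 172 and 159 CPM (92 and 221 cells). Those with none of the 4 had 6.67 and 12.8 CPM (26 and 144 cells). The ratio was 25.8 (4.57 to 1027), with 1 UMI in the untreated cells without these genes, and 12.5 (6.45 to 27.6). In the same comparison the ratio was 0.879 and 0.611 for *Glul* and 0.582 and 1.10 for *Slc1a2*.

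When cells were instead grouped by Leiden clustering without the members, 3 clusters that the gate markers did not name were led by these genes. Within the *Mog* clusters of the untreated library the ratio of cells with over without them was 0.707. The cluster highest in *Enpp6* had 384 and 365 CPM of *Slc1a1*, found in 79.6% and 68.5% of its cells, the cluster highest in *Gpr17* and *Bmp4* had 239 and 225 CPM, and the cluster highest in *Tmem2* had 156 and 139 CPM. The 2 *Pdgfra* clusters had between 58.6 and 101 CPM, and the 2 *Mog* clusters between 6.10 and 12.8 CPM. The 3 clusters with genes of newly formed oligodendrocytes were thus higher in *Slc1a1* than the *Pdgfra* and the *Mog* clusters in both libraries.

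**Figure D3:**
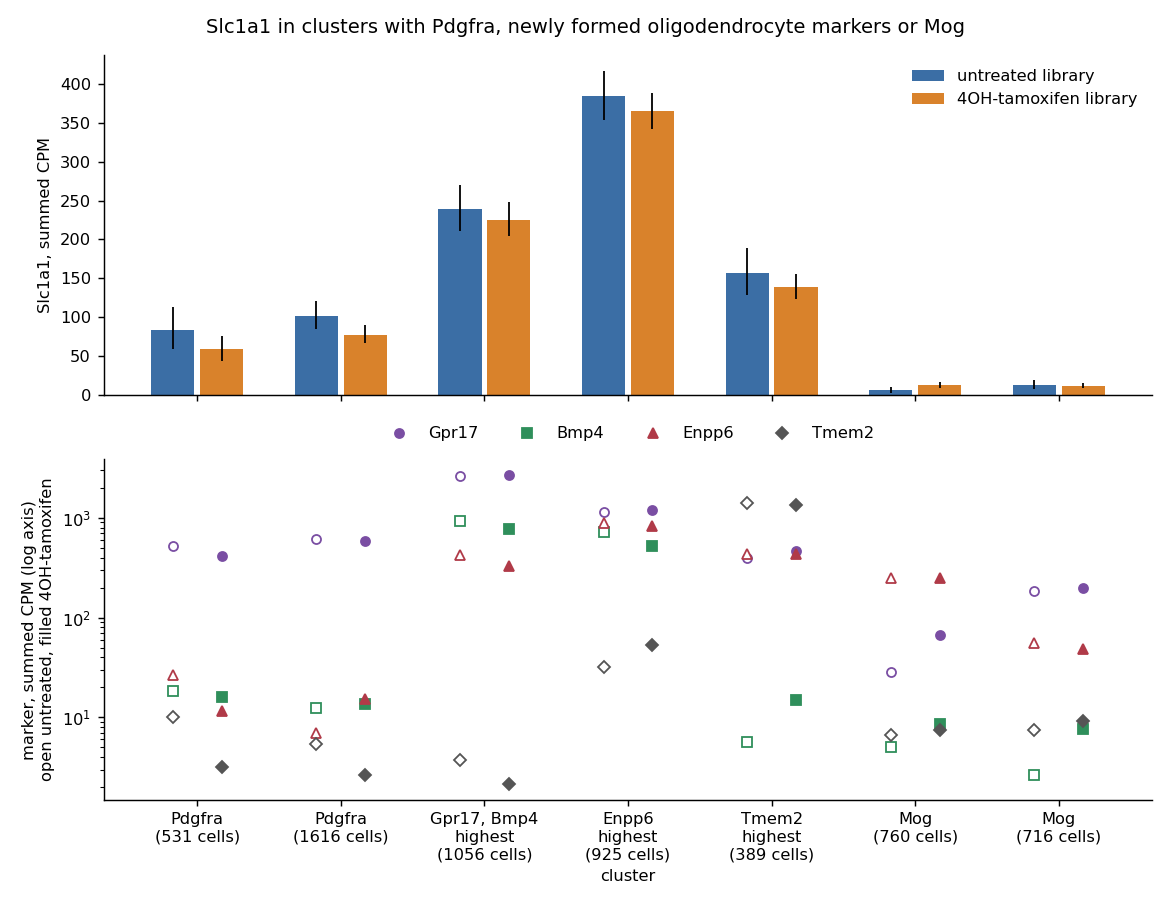
*Slc1a1* in 7 clusters of the oligodendrocyte lineage and the levels there of *Gpr17*, *Bmp4*, *Enpp6* and *Tmem2*, in CPM, for both libraries (untreated open and 4OH-tamoxifen filled for the markers, which are on a logarithmic axis), with exact 95% Poisson intervals for *Slc1a1*. The cluster highest in *Enpp6* has 384 and 365 CPM of *Slc1a1* and the *Mog* clusters 12.8 CPM or less.

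*Glul*, the only enzyme among the members and the one that turns glutamate and ammonia into glutamine, was high in 3 classes. Astrocytes had 711 CPM (668 to 755) and 779 CPM (745 to 815), microglia 683 CPM (625 to 745) and 512 CPM (460 to 568), and endothelial cells 512 CPM (459 to 570) and 465 CPM (415 to 520). In the untreated library astrocytes and microglia did not differ beyond counting error (ratio 1.04, 0.935 to 1.16), and in the 4OH-tamoxifen library astrocytes were 1.52 times higher (1.36 to 1.71). Oligodendrocytes had 198 and 234 CPM and cholinergic neurons 250.1 CPM (143 to 406, from 16 UMIs) and 139 CPM (96.5 to 195). Endothelial cells exceeded oligodendrocytes beyond counting error in both libraries.

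With *Glul* high in microglia and endothelial cells as well, astrocytes exceeded all other gated cells by only 2.15-fold (1.98 to 2.34) and 3.01-fold (2.82 to 3.21). Relative to the 6 other astrocyte genes, *Glul* in microglia was 25.6 and 8.54 times the astrocyte quotient, in endothelial cells 15.2 and 8.64, and in oligodendrocytes 11.6 and 8.61, with 7.55 as the lowest of these values when 1 of the 6 genes was left out. The microglia class held 4 macrophage genes at 737 and 399 CPM and the endothelial class 5 pericyte genes at 2179 and 2135 CPM, and their part was not tested. The share of microglia with *Glul* was 85.2% and 66.8%, and after thinning to 2000 UMIs it was 67.9% and 53.6%.

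*Slc38a3*, which encodes the glutamine transporter SNAT3, was at 488 CPM (454 to 525) and 328 CPM (306 to 352) in astrocytes and at 288 CPM (248 to 332) and 247 CPM (211 to 288) in endothelial cells. Astrocytes exceeded endothelial cells by 1.70-fold (1.44 to 2.01) and 1.33-fold (1.12 to 1.58), and precursors followed at 93.7 and 80.9 CPM. Neurons had 1 UMI in 61 cells and 23 UMIs in 270 cells. Against all other gated cells the astrocyte ratio was 7.62 (6.59 to 8.83) and 8.51 (7.43 to 9.78). The quotient to other astrocyte genes was 12.4 and 10.9 in endothelial cells, 2.59 and 2.02 in precursors and at most 1.24 elsewhere.

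*Slc38a1*, which encodes SNAT1, was highest in neurons, at 201 CPM (161 to 248) and 230 CPM (205 to 257), and 4.33 (3.34 to 5.57) and 4.25 (3.67 to 4.92) times its level in other gated cells, with ranges of 3.16 to 5.30 and 2.97 to 5.67 under other processing. Inhibitory neurons had 260 CPM (195 to 339) and 329 CPM (281 to 384), *Slc32a1*-/*Chat*- neurons 174 and 182 CPM, and cholinergic neurons 62.5 CPM (17.0 to 160) and 127 CPM (86.3 to 180). Inhibitory over *Slc32a1*-/*Chat*- neurons was 1.496 (0.921 to 2.49) and 1.81 (1.40 to 2.33), beyond counting error in the 4OH-tamoxifen library. Oligodendrocytes, at 8.25 and 9.76 CPM, and endothelial cells, at 9.23 and 15.2 CPM, were lowest.

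*Slc38a1* was found in 42 of the 53 neurons with *Slc17a6* (79.2%) and in 106 of the 145 neurons with *Slc32a1* (73.1%), against 37 of 176 and 35 of 289 microglia, whose cells were shallower. After thinning to 2000 UMIs it was found in 17 of 34 and in 59 of 113, against 11.3% and 10.9% of microglia. *Slc1a1* was found in 19 (35.8%) and 41 (28.3%) of the same neurons, and after thinning in 4 of 34 and 15 of 113, against 4.17% of microglia in each library. Neurons with *Slc17a6* had 227 CPM (142 to 344) and 273 CPM (210 to 348) of *Slc38a1*, intervals that overlapped those of inhibitory neurons. The *Slc32a1*-/*Chat*- neurons without *Slc17a6* had 76.0 and 124 CPM.

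Astrocytes themselves divided over *Slc38a1*. They had 91.3 and 136 CPM as a class, but those with *Gfap*, an intermediate filament of fibrous and surface astrocytes, and no *Slc7a10*, a transporter of serine and other small amino acids, had 309.6 and 345 CPM (91 and 327 cells). Those with *Slc7a10* and no *Gfap* had 6.81 and 12.9 CPM (215 and 336 cells), and those with both had 71.5 and 88.7 CPM (188 and 387 cells). The ratio of the first to the second group was 45.4 (17.1 to 170.5) and 26.7 (13.8 to 59.1), and *Slc38a1* was found in 53.8% and 37.3% of the first and in 1.86% and 2.08% of the second.

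*Glul*, *Slc38a3* and *Slc1a2* went the opposite way between these astrocytes, and *Slc1a3* did not differ beyond counting error. *Glul* in *Gfap* cells without *Slc7a10* was 0.331 (0.260 to 0.417) and 0.564 (0.494 to 0.643) times its level in *Slc7a10* cells without *Gfap*, with 302 against 913 CPM and 514 against 912 CPM. *Slc38a3* was 0.413 (0.3195 to 0.529) and 0.558 (0.461 to 0.674) times as high, and *Slc1a2* 0.510 (0.453 to 0.572) and 0.756 (0.706 to 0.810) times. For *Slc1a3* the ratio was 1.05 (0.911 to 1.20) and 1.04 (0.935 to 1.16), and for *Slc1a1* 2.30 (0.886 to 6.04) and 1.61 (0.883 to 3.02). *Slc17a6* had 12 UMIs in 9 of the 327 *Gfap* cells without *Slc7a10* in the 4OH-tamoxifen library (17.1 CPM, 8.81 to 29.8) and 0 in the 336 *Slc7a10* cells without *Gfap*, against 0 and 1 UMI in the untreated library. *Aqp4*, the gate marker, was 1.92 times as high in both libraries, and neither *Gfap* nor *Slc7a10* took part in the gate.

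**Figure D4:**
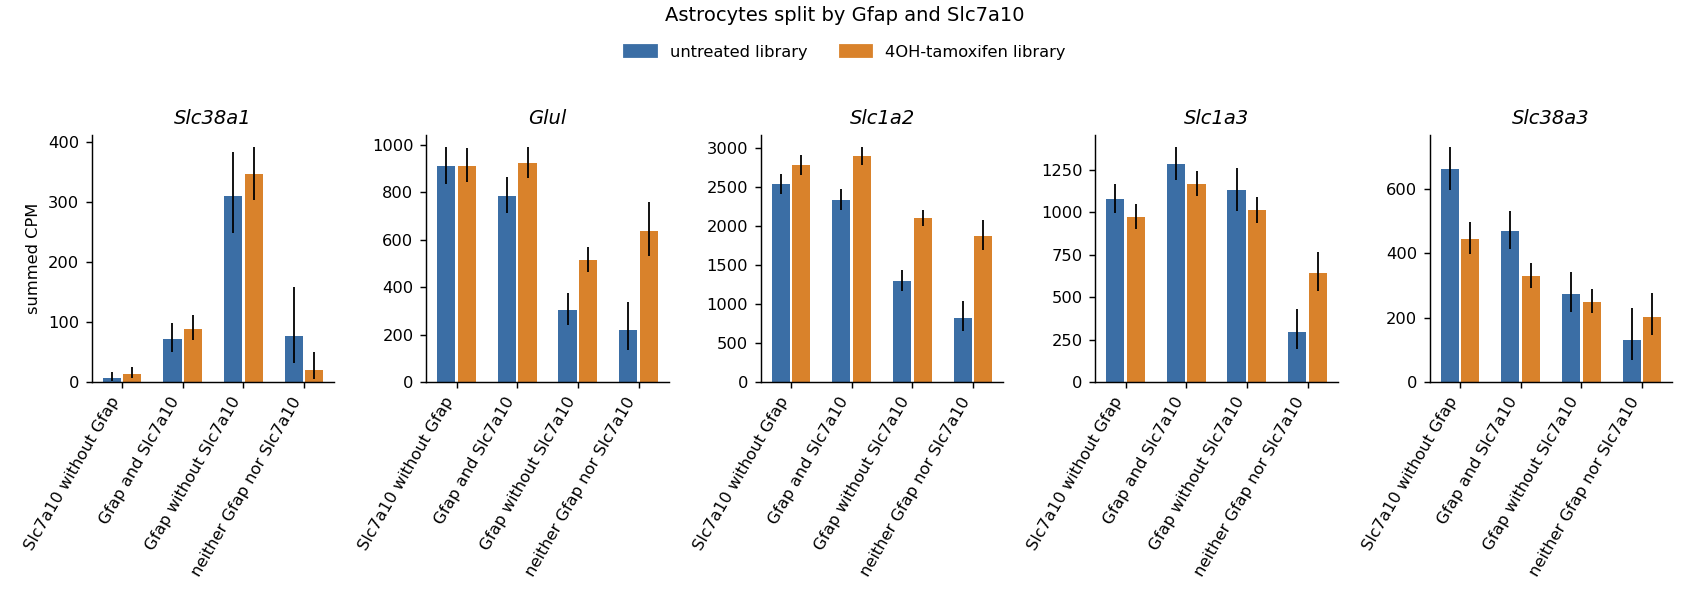
Level of *Slc38a1*, *Glul*, *Slc1a2*, *Slc1a3* and *Slc38a3* in *Aqp4* astrocytes split by *Gfap* and *Slc7a10*, in CPM on linear axes that start at 0, with 1 bar per library and exact 95% Poisson intervals. *Slc38a1* goes from 6.81 and 12.9 CPM in *Slc7a10* cells without *Gfap* to 309.6 and 345 CPM in *Gfap* cells without *Slc7a10*, while *Slc1a3* is nearly level between these groups.

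Between the libraries, members were compared within each class. Of 38 pairs of member and class with enough UMIs, 8 (21.1%) were at least 1.5-fold apart, against 20.8% of 41975 pairs over all genes. After thinning each cell to 2000 UMIs it was 9 of 24 pairs (37.5%), against 24.0% over all genes. Of the 8 without thinning, 5 belonged to *Slc1a2* and 2 to *Glul*, and the remaining 1 to *Slc1a1* in *Slc32a1*-/*Chat*- neurons (1.59, 0.778 to 3.66). This last ratio went from 0.886 to 1.65 under other processing, so its direction turned. By class, the pairs apart were 3 of 5 in *Slc32a1*-/*Chat*- neurons (34.8% of all genes), 1 of 4 in inhibitory neurons (21.4%), 1 of 2 in cholinergic neurons (37.7%), 1 of 6 in precursors (22.8%), 1 of 4 in microglia (23.8%) and 1 of 5 in endothelial cells (19.6%). None of the 6 members compared in astrocytes (19.2% of all genes) or in oligodendrocytes (13%) was 1.5-fold apart.

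*Slc1a2* was higher in the 4OH-tamoxifen library in 7 classes, and in cholinergic neurons the interval held 1 and the direction turned with other processing. The ratio was 1.20 (1.15 to 1.252) in astrocytes, 2.26 (1.89 to 2.73) in microglia, 2.03 (1.60 to 2.59) in endothelial cells, 1.56 (1.32 to 1.84) in precursors, 1.45 (1.26 to 1.67) in oligodendrocytes, and 1.60 (1.05 to 2.52), 1.66 (1.15 to 2.43) and 1.22 (0.587 to 2.86) in *Slc32a1*-/*Chat*-, inhibitory and cholinergic neurons. The last became 0.782 with clusters and 0.952 where other markers were allowed at 1 UMI. In the same library the 6 other astrocyte genes were also higher outside astrocytes in most classes, at 591 against 343 CPM in microglia, 530.3 against 432 CPM in endothelial cells and 936 against 677 CPM in precursors. Their part in the difference of *Slc1a2* was not tested.

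*Slc38a3* in astrocytes was lower in the 4OH-tamoxifen library, at 0.672 (0.607 to 0.744) of the untreated level, and *Slc38a1* in astrocytes was higher, at 1.48 (1.21 to 1.83), with 2.55 when at most 10% mitochondrial UMIs were allowed, 1.93 with at least 1200 genes and 1.19 with clusters. The *Gfap* cells without *Slc7a10* made up 91 of 520 astrocytes in the untreated and 327 of 1140 in the 4OH-tamoxifen library, and the part of this share in both differences was not tested. *Slc1a3* in astrocytes was at 0.918 (0.862 to 0.977) and *Glul* at 1.10 (1.02 to 1.18). In microglia *Glul* was at 0.750 (0.653 to 0.860), and in oligodendrocytes *Slc1a1* was at 0.725 (0.593 to 0.888). The ratio of *Glul* in astrocytes turned to 0.864 with at least 1200 genes per cell and 0.932 after thinning, and that of *Slc1a1* in oligodendrocytes to 1.29 with clusters. The median ratio of all genes was between 0.971 and 1.17 in the 8 classes.

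**Figure D5:**
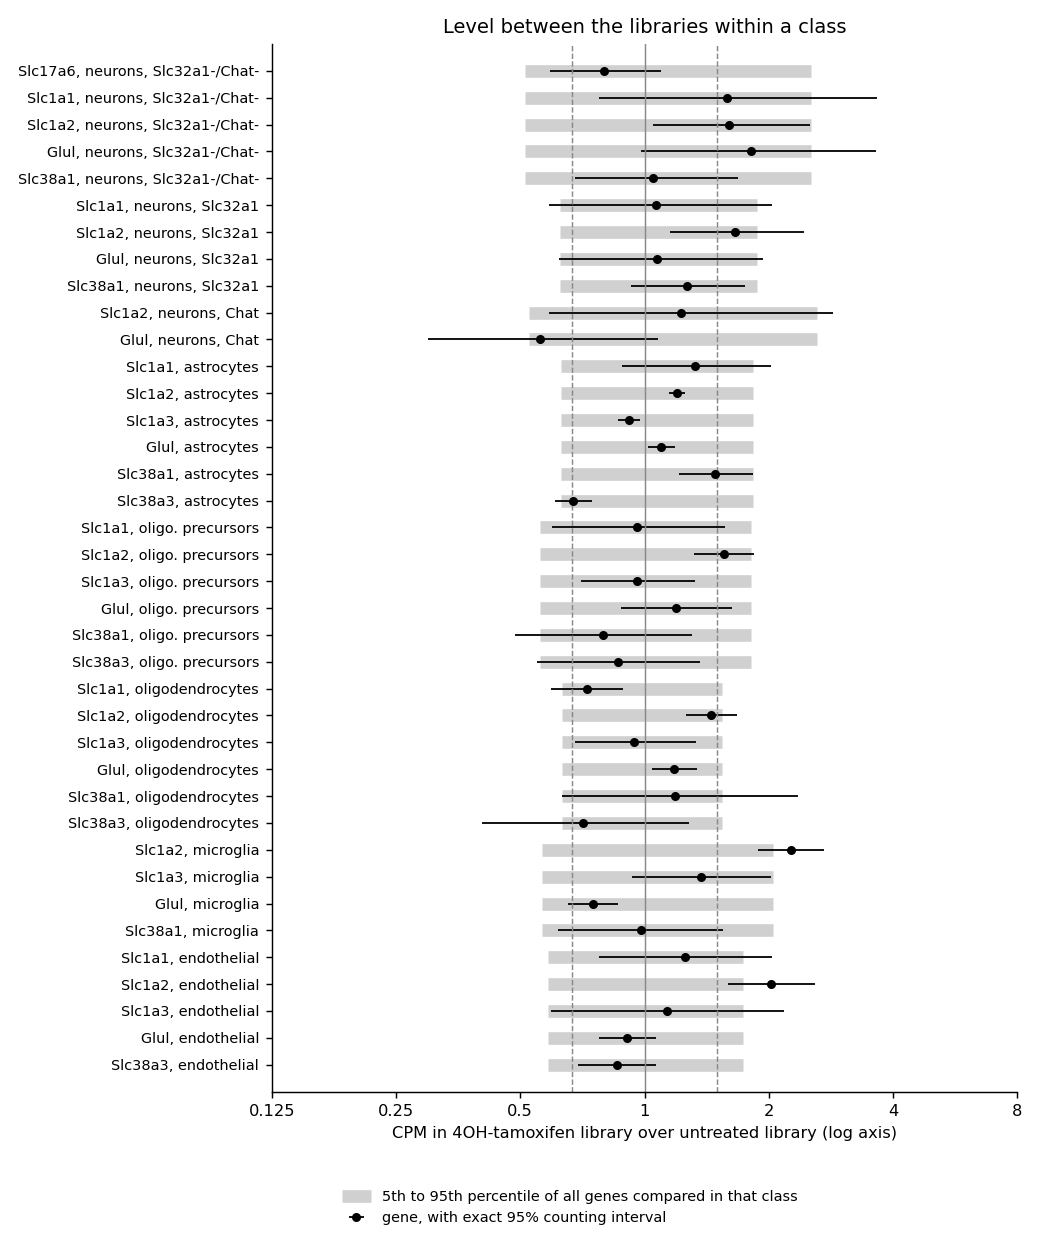
Ratio of the 4OH-tamoxifen to the untreated level for 38 pairs of member and class (logarithmic axis), with exact 95% intervals of counting error and grey bars for the range of all genes of the class from the 5th to the 95th percentile. *Slc1a2* lies above 1 in all 8 classes (in cholinergic neurons 0.782 with clusters in place of the gate), and 8 of the 38 pairs are at least 1.5-fold apart.

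A list of 42 further genes of glutamate, glutamine, GABA and glycine handling was read in the same classes. Of its genes 41 were in the files and 30 had enough UMIs. In neurons 10 of the 30 were at least 4-fold higher in both libraries and 5 at least 4-fold lower, and in astrocytes 8 were higher and 4 lower, against 6.95% and 7.38% of all genes in neurons and 3.73% and 5.82% in astrocytes. Median ratios over the list were 1.07 and 1.03 in neurons, where all genes had 1.04 and 1.09, and 0.961 and 0.797 in astrocytes, where all genes had 0.839 and 0.864.

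The aspartate aminotransferases were on the neuronal side. *Got1* and *Got2*, the cytosolic and the mitochondrial form, had ratios of 7.55 and 8.26 and of 5.44 and 6.79 in neurons, and *Slc25a22*, a mitochondrial glutamate carrier, 7.83 and 11.1. In neurons 5 of the 10 higher genes (*Slc25a22*, *Gad1*, *Gad2*, *Slc6a5* and *Slc18a3*) had under 50 UMIs outside neurons in at least 1 library, as *Slc7a11* had outside astrocytes and *Slc38a5* outside endothelial cells, so they passed the filter on low values only through the class in which they were high. Those with the largest ratio in neurons were the inhibitory genes *Slc6a5* (208 and 52.9) and *Gad1* (161 and 45.9). *Slc38a2*, which encodes the glutamine transporter SNAT2, was not higher in neurons, at 0.518 and 0.912.

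On the astrocytic side stood *Glud1*, glutamate dehydrogenase, with ratios of 5.62 and 5.51 in astrocytes, *Slc25a18*, another mitochondrial glutamate carrier, with 13.3 and 10.8, and *Slc7a11*, the cystine-glutamate exchanger, with 28.8 and 28.5. The largest ratios were those of *Slc7a10* (39.2 and 24.5) and *Slc6a11*, a GABA transporter (35.2 and 19.5), and the smallest that of *Slc38a5*, another glutamine transporter (0.0625 and 0.0360), which had 380 and 250 CPM in endothelial cells. In oligodendrocytes and in microglia none of the 30 was 4-fold higher, and 14 and 8 were 4-fold lower, against 2.94% and 3.24% higher and 15.6% and 10.9% lower among all genes. Among the neuron classes, *Slc32a1*-/*Chat*- neurons had 2 of the list higher and 4 lower (3.46% and 5.07% of all genes), inhibitory neurons 7 and 5 (4.54% and 10.1%), where 4 of the 7 passed the filter only through these neurons, and cholinergic neurons 2 and 8 (4.49% and 10.4%). Precursors had 0 higher and 1 lower (1.6% and 4.87%), and endothelial cells 2 higher, *Slc38a5* and the amino acid carrier *Slc7a5*, and 9 lower (4.73% and 11%).

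The genes most like each member over the classes were found by Pearson's r of log2(CPM + 10) over 16 values (8 classes in 2 libraries), which share a library and its depth and are given as a description. For *Slc17a6* they were *Nmb* (0.948), *Adcyap1* (0.905) and *Gal* (0.900), 3 neuropeptide genes. *Slc17a6* was high in *Slc32a1*-/*Chat*- neurons alone and passed the filter in part through them, so these r rest mostly on that class. They do not show that the genes go together in single cells. For *Slc1a2* they were *Rfx4* (0.959), *Mt2* (0.958) and *Slc1a3* (0.956), and for *Slc1a3* *Ednrb* (0.992), *Igfbp2* (0.967) and *Entpd2* (0.962). For *Slc38a3* they were *Nrarp* (0.952), *Lpar4* (0.945) and *Cdc42ep4* (0.934), and for *Glul* *Eva1a* (0.904), *Sat1* (0.902) and *Lpcat3* (0.901).

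For the remaining members with enough UMIs the closest genes were *Tubb2a* (0.946), *Gpr162* (0.933) and *Cib2* (0.926) for *Slc38a1*, and *Nav1* (0.934), *Dnm3* (0.920) and *Fign* (0.906) for *Slc1a1*. Among the members themselves, r was 0.956 for *Slc1a2* with *Slc1a3*, 0.711 for *Slc1a2* with *Slc38a3*, and -0.770 for *Glul* with *Slc1a1*.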

How the data were processed

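Cells of the ventral parafacial region were profiled in 2 droplet libraries. Per the labels, reads were converted with bcl2fastq 2.18.0.12 and aligned and counted with Cell Ranger 2.2.0 on mm10 (GRCm38), and the deposited values are raw UMI counts per gene and cell barcode, without normalization. The 2 libraries held 3767 and 10241 barcodes with 18496942 and 34704167 UMIs.

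Barcodes called as doublets by Scrublet in scanpy 1.11.5 (0.159% and 5.31%), with under 800 genes, over 50 hemoglobin UMIs or over 20% mitochondrial UMIs were removed. The steps and thresholds were those of the study's methods, but the numbers of cells kept differed from the study's. Without doublet removal 3345 and 9050 cells were kept here. Classes were gated on 8 markers, and 2 or more UMIs of *Slc32a1* or *Chat* also kept a cell out of the non-neuronal classes. UMIs were summed per class and scaled to 1000000 (CPM), with exact Poisson intervals for CPM, Clopper-Pearson intervals for shares and exact conditional intervals for ratios (scipy 1.17.1), at 95%. A count of 0 was given the limit of 3 counts. Genes compared over classes had at least 10 UMIs in 6 or more cells and 50 UMIs in each library. Pairs compared between libraries had at least 20 UMIs in 1 library and 10 expected in each. Shares were also computed after thinning each cell to 2000 UMIs, leaving out shallower cells. The main procedure was checked on simulated data.

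The genes named are the 9 members, 15 genes of the further list (the largest and smallest ratios in astrocytes and neurons, 5 chosen enzymes and carriers, and some chosen later), and the 3 genes most like each member. *Got1*, *Slc25a18*, *Slc7a5* and the lineage groups behind *Slc1a1* were chosen after their values were seen. Some genes of the lists, and groups of neurons defined by them, are not reported here. The 6 astrocyte genes divided by and the 42 further genes are what was left, a choice made after seeing the data. Members and lists were chosen with earlier results of these data known. Doublet removal, filters, gate, clustering in place of the gate, thresholds, depth and the measure were varied.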

Additional observations from a re-analysis of the deposited data

Results flagged for a closer look

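The cells placed in no class carried *Slc1a1* at 96.2 CPM (90.6 to 102) in the untreated and 100.5 CPM (96.1 to 105) in the 4OH-tamoxifen library, where the 8 classes had 19.0 to 93.8 and 18.6 to 95.6 CPM, with intervals that held these levels in several classes. These were 2147 and 5723 cells, of which 579 and 1280 had the gene.

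*Glul* differed in opposite directions between the libraries in 2 neuron classes. Its level in the 4OH-tamoxifen library over that in the untreated library was 1.81 (0.982 to 3.64) in *Slc32a1*-/*Chat*- neurons and 0.557 (0.299 to 1.08) in cholinergic neurons. Both intervals hold 1, the classes had 22 and 123 and 10 and 31 cells, and the difference between them was not tested. Under other processing the ratios went from 1.23 to 2.08 and from 0.557 to 0.916. The untreated cholinergic level rested on 16 UMIs in 4 of 10 cells.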

How the results depend on the processing

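With 1 library per condition and few neurons in the untreated library, counting error and the choice of cells set the limits. No paired analysis was possible because each condition had 1 library. The number of members at least 4-fold higher in their class was 5, fell to 3 (*Slc1a2*, *Slc1a3* and *Slc38a3*) with at most 10% mitochondrial UMIs and after thinning, where *Slc17a6* had too few UMIs and *Slc38a1* was under 4-fold, and was 3 at 8-fold. *Slc38a1* was also under 4-fold with 1 UMI of the class marker (3.80 and 3.71) and with the mean of each cell's CPM (3.16 and 2.97). Pairs of member and class apart between libraries numbered 8, with 20 (46.2% of pairs over all genes) where the higher level had to be 25% above the lower, and 2 (5.89% over all genes) at 2-fold. The share of *Slc32a1*-/*Chat*- neurons with *Slc17a6* went from 40.9% to 20% in the untreated library with at most 10% mitochondrial UMIs, and from 34.1% to 19.1% in the 4OH-tamoxifen library with 1 UMI of the class marker. The share of *Slc17a6* neurons with *Slc32a1* in the 4OH-tamoxifen library (2.27%) was 0 with detection at 2 UMIs, with 3 UMIs of the class marker and after thinning, and the counts were 1 of 30 and 3 of 89 where other markers were allowed at 1 UMI and 1 of 50 and 4 of 169 with clusters.

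The share of cells in a class was 35.7% and 33.1%. It became 32.6% and 30.2% with at least 1200 genes, 30.3% and 30.4% with at most 10% mitochondrial UMIs, 43.7% and 45.8% with 1 UMI of the class marker, 31.7% and 26.8% with 3 UMIs, 69.6% and 61.4% where other markers were allowed at 1 UMI, and 79.0% and 76.7% with clusters. Of 168 alternative values of a member in its class over other cells, 1 lay on the other side of 1 (*Slc1a1* in untreated neurons, 0.749 with at most 10% mitochondrial UMIs). Of 394 alternative ratios between libraries 34 did, most from ratios whose interval held 1, among them *Slc17a6* in *Slc32a1*-/*Chat*- neurons (0.799, with 1.70 after thinning) and *Slc1a1* in astrocytes (1.33, with 0.868 at 3 UMIs of the class marker). Ratios whose interval excluded 1 turned in 4 values. *Glul* in astrocytes between libraries became 0.864 with at least 1200 genes and 0.932 after thinning. *Slc1a1* in oligodendrocytes between libraries became 1.29 with clusters. The ratio of *Slc1a1* in untreated *Mog* cells with over without *Enpp6*, *Gpr17*, *Bmp4* and *Tmem2* became 0.707 with clusters (the cause was not tested). That last comparison and the one of *Gfap* with *Slc7a10* astrocytes were added after seeing the data, and the latter kept its direction for *Slc38a1* (27.0 to 59.5 and 17.0 to 42.6), *Glul* and *Slc1a2*.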

Other observations

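Smaller groups of cells carried members too. They were formed by marker lists after values were seen, and hold few cells. Cells with at least 3 of the fibroblast genes *Dcn*, *Lum*, *Col1a1* and *Col1a2* (22 and 18 cells) had *Slc1a3* at 408 CPM (285 to 564) and 406 CPM (245 to 634), found in 16 of 22 and 11 of 18 of them, and *Glul* at 611 CPM (459 to 798) and 449 CPM (278 to 686). *Gja1*, a gap junction gene that astrocytes and fibroblasts both use, was at 351 and 192 CPM in them.

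Cells with at least 3 of 5 pericyte genes (45 and 40 cells) had 15 and 3 UMIs of *Glul*, which is 137 CPM (76.7 to 226) and 43.0 CPM (8.87 to 126), below the endothelial level of 512 and 465 CPM. *Slc1a2* in them was at 219 and 602 CPM and *Gja1* at 54.9 and 244 CPM. Within the microglia class, C1qa cells with at least 2 of the macrophage genes *Mrc1*, *Pf4*, *Lyve1* and *Cd163* (15 and 12 cells) had *Glul* at 515 CPM (359 to 717) and 326 CPM (156 to 599), against 690 and 527 CPM in C1qa cells with none of them (159 and 271 cells). *Slc38a1* had 0 UMIs and 2 UMIs (65.2 CPM, 7.89 to 235) in the macrophage-marker cells and 63.7 and 55.0 CPM in the others.

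The ungated cells also held much of the vesicular transporters. *Slc17a6* had 215 and 459 UMIs in 59 and 166 of them, *Slc17a7* 3 and 24 UMIs, and *Slc17a8* 1 and 7 UMIs.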
